A study of Mus musculus with 2 samples.

Results

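The 105 genes described here encode the respiratory chain and the ATP synthase of mitochondria. They were chosen by symbol among the 17751 genes of the count tables: 92 nuclear genes whose symbols begin with Nduf, Sdha to Sdhd, Uqcr, Cox4 to Cox8 or Atp5, and all 13 genes whose symbols begin with mt-, the protein-coding genes of the mitochondrial genome. Symbols ending in -ps, which mark pseudogenes, and Cox6a2 were outside the rule. The nuclear genes comprised 37 complex I subunits, 4 complex II subunits, 8 complex III subunits, 14 complex IV subunits and 16 subunits of the ATP synthase (complex V), with 8 Ndufaf and 4 Sdhaf assembly factors and Atp5s. The mt- genes encode 7 subunits of complex I, 1 of complex III, 3 of complex IV and 2 of complex V.

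Complexes I and II pass electrons from NADH and succinate to ubiquinone, complex III passes them on to cytochrome c, and complex IV reduces oxygen. Complexes I, III and IV pump protons across the inner mitochondrial membrane, and complex V uses the gradient to make ATP. Complexes I, III, IV and V are each built from both genomes, whereas complex II is encoded in the nucleus alone. In dendritic cells, which take up and present antigen, respiration and glycolysis are known to be used to different degrees in the resting and the activated state.

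The cells were splenic CD11c+ MHCII+ cells, depleted of T and B cells and sorted, from female C57BL/6 mice at 8 weeks of age that were either wildtype (WT) or Batf3-/-, which lack the transcription factor needed for most cDC1. Spleen cells of several mice were pooled into 1 library per genotype, and transcripts were read from their 3′ ends with unique molecular identifiers (UMIs). The WT library held 12224 cells and 122530055 UMIs (median 8374.5 per cell), and the Batf3-/- library 12119 cells and 114517073 UMIs (median 8516.0). Batf3 itself stood at 206 counts per 1000000 UMIs (CPM) in WT and 2.49 CPM in Batf3-/- cells. The deposited clustering gave 20 clusters, C0 to C19, named here as the study annotated them. These are immature cDC2a (C0), cDC2b (C2), Sox4+ cDC (C3) and cDC1 (C4), mature cDC2a (C8), cDC2b (C11), cDC1 (C12) and Il4i1+ cDC2 (C1), mitotic cDC2a (C5, C7, C10) and cDC1 (C6), mitochondrial cDC2 (C9) and cDC1 (C17), ribosomal cDC1 (C18), NK, ILC and T cells (C13), pDC (C14), monocytes (C15), a mixed cluster (C16) and stem cells (C19). Only clusters of at least 50 cells in a library were used, which left 19 clusters in WT and 15 in Batf3-/-. In the Batf3-/- library C4, C12, C17 and C18 held 31, 31, 1 and 2 cells. The summed dendritic cell markers ranged from 2574 to 13112 CPM over the WT clusters C0 to C18. The markers of red blood cells summed to 6079 CPM in C18 and to 4579 CPM in C11 of WT against 237 CPM in C11 of Batf3-/-. Of the barcodes, 56 occurred in both libraries.

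With 1 library per genotype there is no replicate of any value, so no difference was tested. A level is the CPM of a cluster within a library, and the exact 95% intervals in square brackets cover counting error only. A gene was compared where it reached a mean of 50 CPM over both sides and 20 UMIs, and it was counted as higher or lower where the log2 ratio of the levels was at least 0.5 in size. Since the clusters were made from the same transcripts, differences between clusters are descriptions. Beside the counts of each comparison stands the background, the percentage of all compared genes past the same ratio in that direction. Levels count 3′ tags per 1000000 UMIs and not molecules per cell.

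The 105 genes took 6.21% of all UMIs in WT and 6.03% in Batf3-/- cells. The 92 nuclear genes together held 1.90% and 1.94%, and the 13 mt- genes 4.31% and 4.10%. In each library 76 of the nuclear and 12 of the mt- genes reached 50 CPM. Over all cells of both libraries, the nuclear genes with the highest level of each complex were Ndufa4 (410 CPM, named for complex I but known as a complex IV subunit) and Ndufa13 (332 CPM) in complex I, Uqcrh (581 CPM), a hinge protein near cytochrome c1, and Uqcrb (280 CPM) in complex III, Cox4i1 (843 CPM) and Cox8a (625 CPM) in complex IV, and Atp5h (650 CPM) and Atp5e (641 CPM) in complex V. The 4 subunits of complex II lay between 42.8 CPM for Sdhc and 110 CPM. Of the tissue-specific isoforms, Cox4i2 was all but absent, with 0.0127 CPM from 3 UMIs and no UMI in 32 of the 34 combinations of cluster and library. The muscle isoform Cox7a1 had 86 UMIs in each library. Cox6b2, best known from testis, had 1056 UMIs in WT and 1517 in Batf3-/- cells, and its level peaked in C10 at 27.7 and 31.0 CPM.

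The single mt- genes spanned a wide range of levels, given here for C0 in WT and Batf3-/- cells. The complex IV genes mt-Co1, mt-Co2 and mt-Co3 had 7253 and 7072 CPM, 8104 and 7465 CPM and 10509.6 and 9739 CPM. Of the complex V genes, mt-Atp6 had 10446 and 9607 CPM and mt-Atp8 had 74.1 and 65.9 CPM. The complex III gene mt-Cytb had 3843 and 3727 CPM. Among the 7 complex I genes, mt-Nd4 had 2658 and 2526 CPM, mt-Nd2 2236 and 2004 CPM, mt-Nd1 1763 and 1567 CPM, mt-Nd5 433 and 423 CPM and mt-Nd6 18.3 and 23.9 CPM. The complex I genes were each below mt-Cytb, and mt-Nd6 alone was under 50 CPM. These are 3′ tag counts, so the order is not one of molecules per gene length. In the pDC of C14 each gene but mt-Nd6 lay above its level in C0 in both libraries, not all past the ratio, mt-Nd4 for example with 3961 and 4155 CPM and mt-Co1 with 10547 and 11001 CPM. In complex II, Sdha had 109 and 117 CPM in C0, the iron-sulfur subunit Sdhb 93.7 and 92.4 CPM, and the membrane anchors Sdhc 37.8 and 38.9 CPM and Sdhd 70.6 and 70.5 CPM.

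The summed nuclear genes separated the cluster classes more than the genotypes. In WT cells, they took 1.82% of the UMIs of C0, 1.75% of C2, 1.81% of C3 and 1.90% of C4, the immature clusters. They were higher in the mitotic clusters, at 2.06% in C5, 2.17% in C7, 2.22% in C10 and 2.33% in C6, and lower in the mature C1 (1.60%), C8 (1.49%) and C12 (1.10%). The mature cDC2b of C11 (1.73%) lay just below the immature cDC2b of C2 (1.75%). The mixed cluster C16, with few cells in S or G2M, had 2.13% and C18 had 2.30%. The lowest shares were those of C9 (0.48%) and C17 (0.36%). The mitotic clusters were also above C0, and C1, C8 and C9 below it, in the Batf3-/- library, with 1.89% in C0, 2.11% in C5, 2.23% in C7, 2.27% in C10, 2.31% in C6, 2.33% in C16, 1.67% in C1, 1.58% in C8 and 0.48% in C9.

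**Figure D1:**
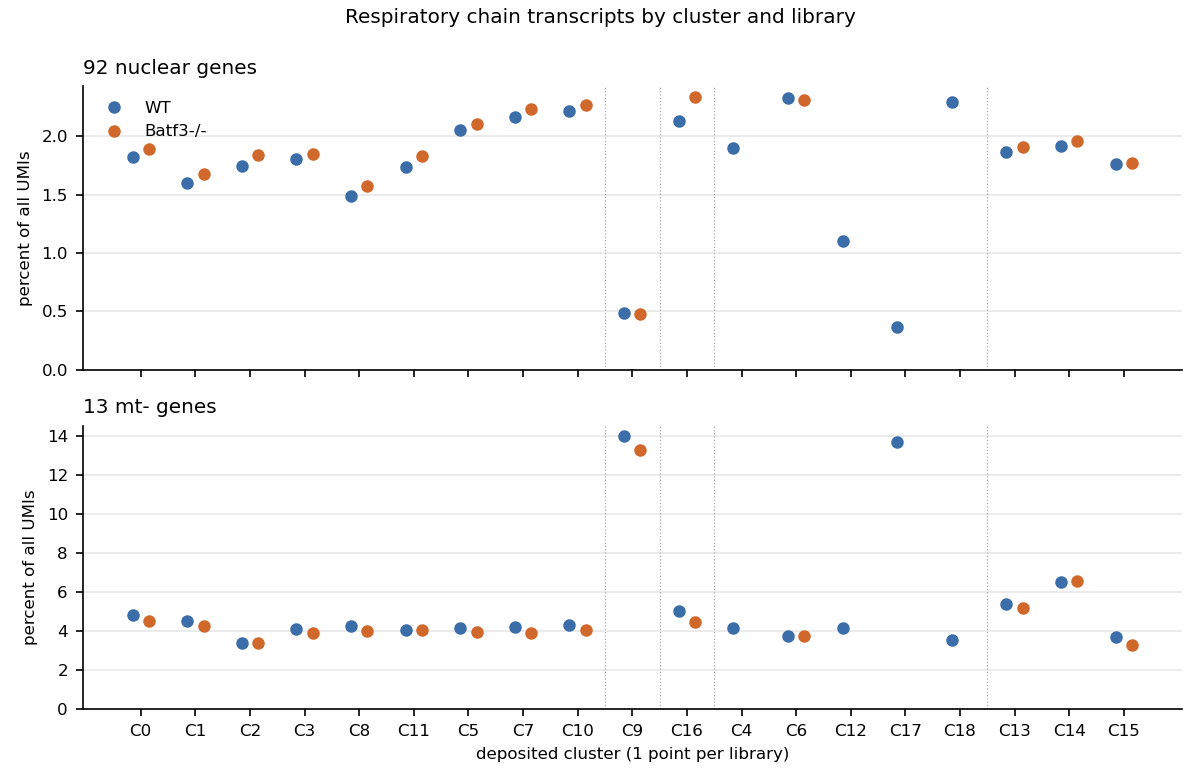
Percentage of UMIs on the nuclear and on the mt- genes for each cluster and library. The nuclear share is above 2% in the mitotic clusters, C16 and C18 and lowest in C9 and C17, which have the highest mt- share.

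The mt- genes followed another order. Their share lay between 3.37% and 5.37% in most WT clusters, among them C0 (4.82%), C4 (4.18%), C6 (3.77%) and C12 (4.16%), and reached 6.50% in the pDC of C14. C9 (14%, interval 13.9% to 14.1%) and C17 (13.7%) were far above, but these clusters were named by the study for their mt- transcripts. Across the 19 WT clusters Pearson's r between the nuclear and the mt- share was -0.82, and without C9 and C17 it was -0.02 over 17 clusters. In Batf3-/- cells r was -0.80 over 15 clusters and 0.04 over 14. The nuclear share and that of the mitochondrial ribosome genes gave r = 0.94 over the 17 WT clusters. Over the same clusters r was -0.74 with the Malat1 share, 0.57 with the share of cells in S or G2M and 0.50 with the median UMIs per cell. Over the 14 Batf3-/- clusters r was 0.96 with the mitochondrial ribosome genes, -0.38 with Malat1, 0.68 with the cells in S or G2M and 0.75 with the median UMIs. All these clusters share 1 library and 1 denominator, so r is a description.

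In the mitotic cDC1 of C6, 20 of 75 nuclear genes were higher and 1 was lower than in the immature cDC1 of C4 in WT (background 21.4% higher and 8.16% lower). The share of genes past the ratio was thus close to the background, but 71 of the 75 lay above 0, against 61.3% of all genes, with a median log2 ratio of 0.36 against 0.12 over all genes. With the median of all genes taken off, 5 were higher and 1 was lower, against 15.1% and 12.4% of all genes. In C7 against C0, 24 of 77 were higher and 2 lower in WT (background 22.9% and 13.6%, median 0.34 against 0.03) and 19 of 76 higher and 3 lower in Batf3-/- cells (background 22.7% and 15.4%). With the UMIs of mt- and cytosolic ribosomal protein genes out of the denominator, 12 in place of 24 were higher in C7 of WT (18.9% of all genes in place of 22.9%). A smaller denominator raises the levels, so at least the same 77 genes were compared. The share of nuclear genes higher in C7 of WT was thus below the background at that setting and above it at the main one. The cytosolic ribosomal protein genes took 19.8% of the UMIs in C7 of WT against 24.4% in C0. In C10, 21 of 77 were higher and 1 lower in WT (background 18.6% and 6.7%) and 17 of 77 higher and 0 lower in Batf3-/- cells (background 16.8% and 6.93%). In C5, 5 of 77 were higher and 1 lower in WT (background 12.1% and 8.15%), and 6 of 76 higher and 1 lower in Batf3-/- cells (background 11.5% and 8.68%). No mt- gene was past the ratio in any of these comparisons, and the mt- sums differed by log2 ratios of -0.15 to -0.21.

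In C6, and in C7 and C10 of WT, the higher genes came from every complex, whereas in C5 no gene of complexes II, III and IV was higher in either library. Of the genes higher in C7, 18 were in both the list of 24 of the WT library and the list of 19 of the Batf3-/- library, and 14 of these 18 were also among the 20 higher genes of C6. Over all genes, 573 were higher in C7 in both libraries, out of 645 and 635, and 366 of these 573 were among the 536 higher in C6. Ndufab1, the mitochondrial acyl carrier protein that is also a complex I subunit, stood at 194 CPM in C7 and 105 CPM in C0 of WT (log2 ratio 0.89) and at 190 and 107 CPM in Batf3-/- cells (0.83). In C6 it stood at 214 CPM against 124 CPM in C4 (0.78 [0.72, 0.85]). Ndufa5, an accessory subunit of the arm that receives electrons, had 103 CPM in C6 and 53.1 CPM in C4 (0.95 [0.85, 1.05]). The core complex I subunit Ndufv1, which binds NADH, was higher in C6 by 0.65 and its neighbour Ndufv2 by 0.57, the only 2 of the 6 core subunits compared. By complex, the medians in C6 over C4 were 0.36 for complex I, 0.49 for II, 0.34 for III, 0.24 for IV and 0.40 for V. In C10, Uqcrc1, a core protein of complex III, was higher by 0.86 and Ndufb8, an accessory subunit of complex I, by 0.78 in WT.

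**Figure D2:**
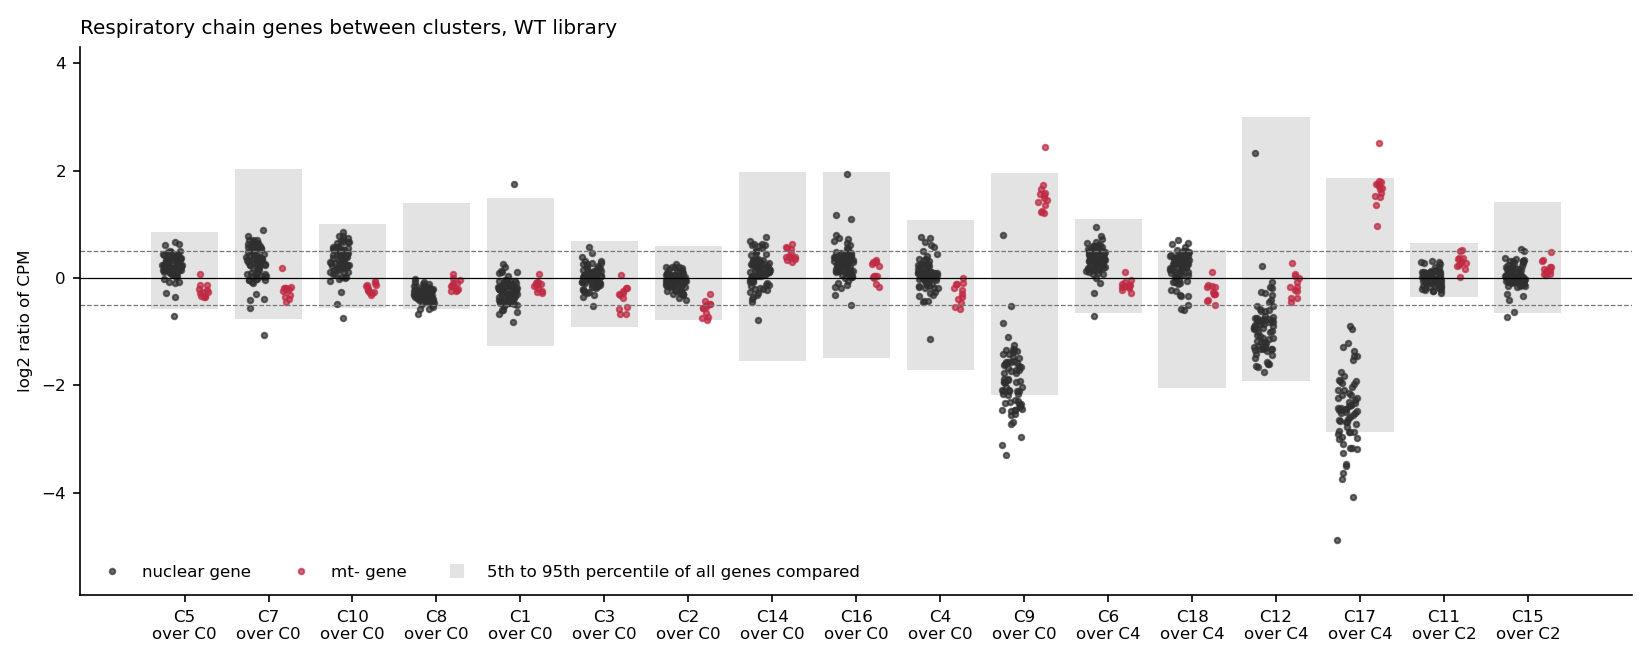
Log2 ratio of the level of each nuclear (black) and mt- (red) gene between clusters; the grey boxes span the 5th to 95th percentile of all genes compared and dashed lines mark 0.5 in either direction. Most nuclear genes lie above 0 in the mitotic clusters and below 0 in C8, C12, C9 and C17.

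Other mitochondrial and metabolic genes were counted in the same way. Of the mitochondrial ribosome genes, 21 of 45 were higher in C6 than in C4 (median 0.47) and 19 of 42 in C7 than in C0 of WT (median 0.45), against backgrounds of 21.4% and 22.9%, and 0 were lower in either. In C6, 4 of 13 genes of the tricarboxylic acid cycle and 6 of 10 genes of glycolysis were higher (background 21.4%), and 1 of glycolysis was lower (background 8.16%). Cells assigned to S or G2M made up 98.4% of C6 and 7.99% of C4 in WT, and the median UMIs per cell were 19599 and 15398.5. Malat1 took 1.90% of the UMIs in C6 against 4.03% in C4, and 1.78% in C7 against 2.97% in C0 of WT. The part of depth and of Malat1 in these ratios was not tested.

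Cox7a2l was lower past the ratio in C5, C6 and C7, and Uqcrh in C7 alone. Cox7a2l encodes SCAFI, a factor of respiratory supercomplexes, of which C57BL/6 mice are known to carry a shortened form that does not join complexes III and IV. It stood at 389 CPM in C7 and 807 CPM in C0 of WT (log2 ratio -1.05 [-1.11, -0.99]) and at 359 and 775 CPM in Batf3-/- cells (-1.11 [-1.17, -1.05]). The level was also lower in C5, by -0.70 and -0.73, and stood at -0.49 and -0.43 in C10, short of the ratio. Among cDC1, Cox7a2l had 363 CPM in C6 and 593 CPM in C4 (-0.71 [-0.75, -0.66]), so that the level of the mitotic cluster was the smaller one in each of these pairs. Its highest WT level was 936 CPM, in C18. Uqcrh had 444 CPM in C7 and 654 CPM in C0 of WT (-0.56 [-0.62, -0.50]) and 453 and 695 CPM in Batf3-/- cells (-0.62 [-0.67, -0.56]), and in C6 it had 431 CPM against 525 CPM in C4 (-0.28). In C5 Uqcrh was at -0.36 and -0.35 and in C10 at -0.26 and -0.30, short of the ratio counted as past. The complex I subunit Ndufa6 was lower in C7 by -0.40 in WT and -0.58 in Batf3-/- cells.

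The mature cDC1 of C12 showed the largest difference among the clusters of usual depth. Of 71 nuclear genes compared, 61 were lower and 1 was higher than in C4 (background 36.4% lower and 29.7% higher), with a median log2 ratio of -0.93 against -0.16 over all genes. After that median was taken off, 55 were lower and 1 was higher, against 30% and 35.1% of all genes. The sum was lower by -0.78 [-0.80, -0.76], while the mt- sum differed by -0.01 and 0 of 12 mt- genes were past the ratio. The difference was seen in every complex, with medians of -1.19 for complex I, -1.31 for II, -0.90 for III, -0.78 for IV and -0.88 for V.

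Within complex I, Ndufs7, which carries the last iron-sulfur cluster before ubiquinone, had 27.0 CPM in C12 and 91.2 CPM in C4 (-1.76 [-2.10, -1.44]). Ndufab1 had 39.4 CPM against 124 CPM (-1.66 [-1.93, -1.39]). Of other core complex I subunits, Ndufs8 was at -1.57 and Ndufv2 at -0.19. A few genes were near their level in C4, and their values moved with the processing. Cox5a, a complex IV subunit, had 455 CPM in C12 against 392 CPM (0.22 [0.13, 0.30]) and Uqcrh 499 CPM against 525 CPM (-0.07 [-0.15, 0.00]). Over the other settings Cox5a ran from 0.04 to 0.25 and Uqcrh from -0.27 to -0.03. Of the mitochondrial ribosome genes, 19 of 22 were lower and 2 higher (median -1.23), of the genes of glycolysis 5 of 9 and 1, and of the cytosolic ribosomal protein genes 53 of 83 and 1, against the same background of 36.4% lower and 29.7% higher. The nuclear-retained RNA Malat1 took 12.8% of the UMIs in C12 and 4.03% in C4, and the median UMIs per cell were 6887.5 and 15398.5. Their part in the lower nuclear levels was not tested.

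The mature cDC2 clusters had smaller differences. In C8, 74 of 74 nuclear genes in WT and 74 of 75 in Batf3-/- cells lay below their level in C0, with medians of -0.31 and -0.29 against -0.10 and -0.11 over all genes, of which 61% and 63.7% lay below 0. Only 4 and 5 genes were past the ratio and 0 were higher (background 7.52% and 9.3% lower, 13.5% and 12.7% higher). The 4 in WT were Sdhd, a membrane anchor of complex II (-0.67), Ndufb2 (-0.58), Uqcrc1 (-0.58) and Atp5k (-0.54). In the Il4i1+ cDC2 of C1, 8 of 73 were lower and 1 was higher than in C0 of WT (background 21% lower and 14.7% higher), and 6 of 75 and 1 in Batf3-/- cells (background 22.6% and 16%). Both shares of lower genes were below the background. Ndufa8 was lower in C1 by -0.82 in WT and -0.73 in Batf3-/- cells. In C11, 0 of 76 nuclear genes were past the ratio against C2 in either library (background 8.33% and 5.96% higher, 2.5% and 2.21% lower).

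Sdhaf1 was the 1 higher gene in C12 and in C1. It encodes an assembly factor that helps to place the iron-sulfur clusters of the complex II subunit Sdhb, and lies at chr7:30321406-30323895 (GRCm38, minus strand). Its level in the WT library ran from 28.2 CPM in C18 over a median of 62.2 CPM to 252 CPM in C1. It stood at 252 CPM in C1 and 75.3 CPM in C0 of WT (log2 ratio 1.74 [1.64, 1.85]) and at 238 and 74.6 CPM in Batf3-/- cells (1.67 [1.59, 1.76]). In C12 it stood at 172 CPM against 34.4 CPM in C4 (2.33 [2.17, 2.48]). The gene overlaps E130208F15Rik on the opposite strand, and the library type keeps strand. Immature cDC1 had less of it than immature cDC2a, with a log2 ratio of -1.13 [-1.24, -1.02] for C4 over C0. In C9, where nearly all other nuclear genes were lower, Sdhaf1 had 131 CPM against 75.3 CPM in C0 of WT (0.80 [0.45, 1.13]) and 103 CPM against 74.6 CPM in Batf3-/- cells (0.47 [0.14, 0.78]).

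**Figure D3:**
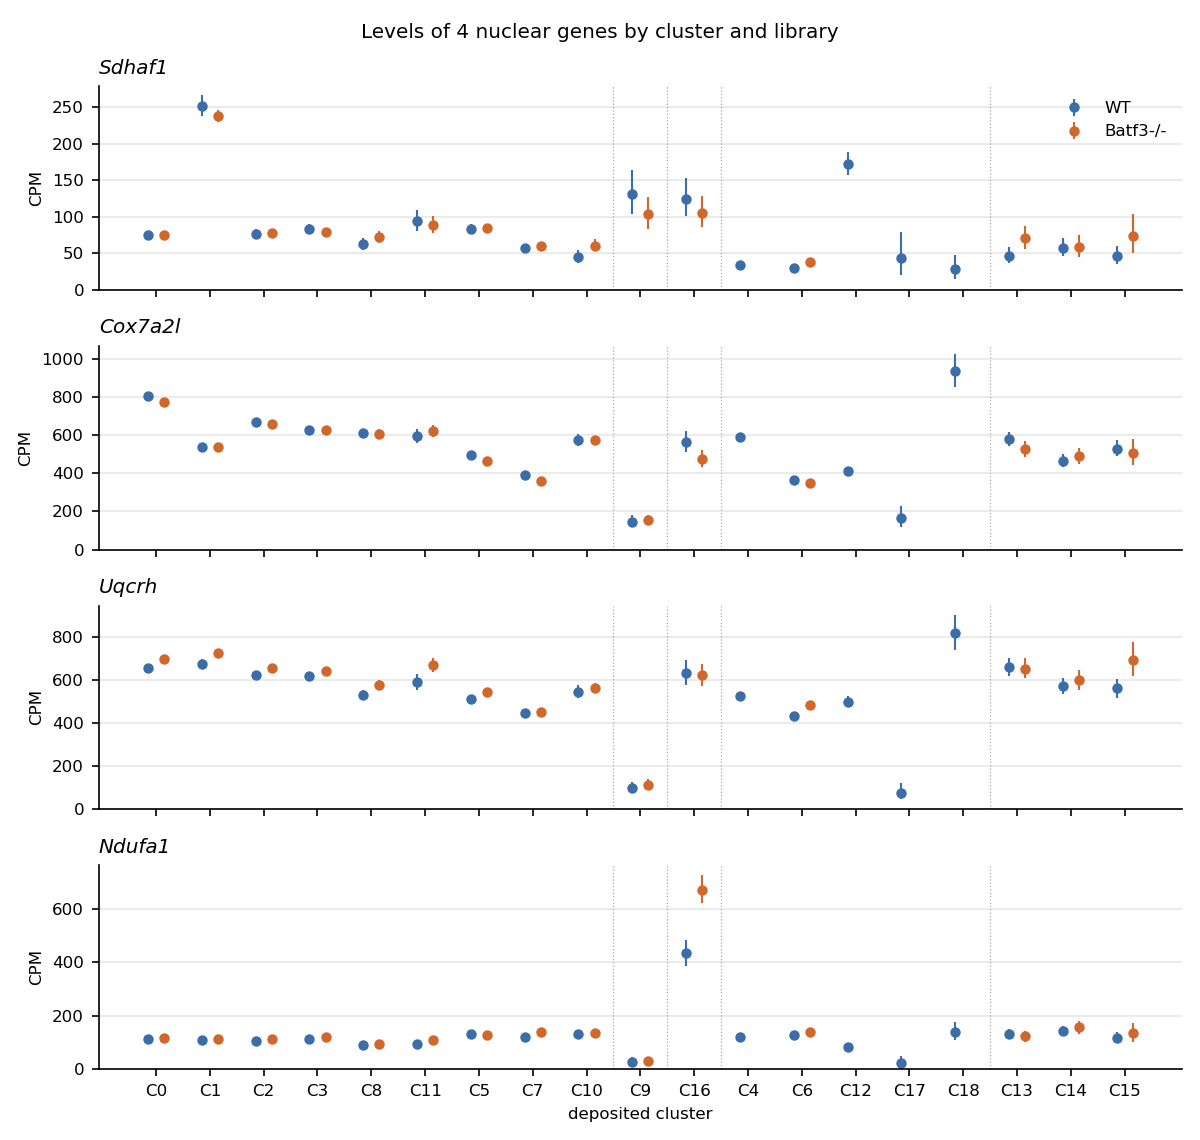
Levels in CPM of Sdhaf1, Cox7a2l, Uqcrh and Ndufa1 by cluster and library, with exact counting intervals. Sdhaf1 peaks in C1 and C12, Cox7a2l is lowest among clusters of usual depth in C6 and C7, and Ndufa1 peaks in C16.

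The promoters of these genes are shown because their levels departed from, or led, the common pattern. They were picked after the values were seen. Windows run from 250 bases before to 50 bases after the RefSeq start (GRCm38.p6), 5′ to 3′ on the gene's strand, and capitals mark motif matches. A set of 3 motifs known from promoters of respiratory genes were searched on both strands and counted separately: GCGCA, any base and GCGC for NRF1, CCGGAAG for ETS factors such as GABPA, and AAGATGGCG for YY1. Sdhaf1 (chr7:30322326-30322625, minus) holds the ETS letters 7 bases after the start and Uqcrh (chr4:116075021-116075320, minus) 10 bases before it. Cox7a2l (chr17:83514284-83514583, minus) holds none of the motifs, Ndufs7 (chr10:80249199-80249498, plus) the YY1 letters 24 bases after the start, and Ndufa5 (chr6:24527641-24527940, minus) the NRF1 letters 26 bases before it. Ndufa5 has a further RefSeq start, whose window (24527477-24527776) holds NRF1 letters 190 bases before it. The windows of Sdhaf1, Cox7a2l, Ndufs7 and Ndufa5 lie inside the annotated genes. Those begin further upstream, at 30323895 for Sdhaf1 and 83517330 for Cox7a2l.
Sdhaf1: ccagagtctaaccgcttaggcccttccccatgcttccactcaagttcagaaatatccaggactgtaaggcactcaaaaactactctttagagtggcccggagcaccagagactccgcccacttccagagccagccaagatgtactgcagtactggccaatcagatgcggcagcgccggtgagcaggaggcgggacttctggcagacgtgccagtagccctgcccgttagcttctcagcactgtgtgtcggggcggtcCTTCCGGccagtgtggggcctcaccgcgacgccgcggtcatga
Uqcrh: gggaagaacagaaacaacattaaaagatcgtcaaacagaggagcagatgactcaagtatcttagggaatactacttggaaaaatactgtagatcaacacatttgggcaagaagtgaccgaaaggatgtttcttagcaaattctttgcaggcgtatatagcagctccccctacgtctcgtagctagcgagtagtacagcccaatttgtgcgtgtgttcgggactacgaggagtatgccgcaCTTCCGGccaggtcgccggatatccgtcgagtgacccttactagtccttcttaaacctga
Cox7a2l: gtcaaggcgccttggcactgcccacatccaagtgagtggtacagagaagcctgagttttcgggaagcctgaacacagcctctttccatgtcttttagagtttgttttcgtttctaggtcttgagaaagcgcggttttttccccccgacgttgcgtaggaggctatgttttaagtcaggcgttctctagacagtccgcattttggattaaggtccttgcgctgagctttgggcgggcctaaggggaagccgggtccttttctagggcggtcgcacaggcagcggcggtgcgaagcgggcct
Ndufs7: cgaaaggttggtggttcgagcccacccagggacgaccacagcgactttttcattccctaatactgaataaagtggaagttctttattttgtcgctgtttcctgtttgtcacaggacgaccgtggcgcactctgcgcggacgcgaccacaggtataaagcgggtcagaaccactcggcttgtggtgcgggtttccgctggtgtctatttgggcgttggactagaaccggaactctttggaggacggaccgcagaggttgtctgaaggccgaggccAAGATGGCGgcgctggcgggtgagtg
Ndufa5: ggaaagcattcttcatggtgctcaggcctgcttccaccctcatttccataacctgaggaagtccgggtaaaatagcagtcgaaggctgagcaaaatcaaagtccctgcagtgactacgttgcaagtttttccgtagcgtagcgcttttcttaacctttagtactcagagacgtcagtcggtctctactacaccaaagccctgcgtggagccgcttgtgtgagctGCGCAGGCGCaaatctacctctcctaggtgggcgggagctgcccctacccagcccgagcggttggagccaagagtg

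A RefSeq window was at hand for 75 of the 92 nuclear genes. The NRF1 letters were in 20 of them (26.7%), against 9.57% of the 12722 genes of the count tables with a window and 5.19% of all 27025 genes with a window. The ETS letters were in 21 (28.0%), against 17.2% and 9.93%, and the YY1 letters in 8 (10.7%), against 2.95% and 1.64%. A match is a description of the letters only. No binding was measured in these cells.

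In C9 and C17, nearly all nuclear genes were lower. C9 had 67 of 68 compared genes lower and 1 higher against C0 in WT (background 36.1% lower and 38.3% higher, median -1.93) and 65 of 67 lower and 0 higher in Batf3-/- cells (background 36.5% and 39.7%, median -1.98). C17 had 67 of 67 lower than C4 (background 42.9% lower and 35.5% higher, median -2.45). Ndufa8 stood at 16.8 CPM in C9 and 165 CPM in C0 of WT. Sdha, the flavoprotein of complex II, was at -0.53 [-0.99, -0.10] in C9 of WT. Only 2 of the 4 complex II genes could be compared in C9 and in C17. The 13 mt- genes, for which these clusters were named, were each higher. mt-Nd6, the only mt- gene on the light strand, was at 2.43 in C9 of WT and 2.51 in C17. The cells of C9 had a median of 1467 UMIs in WT against 6648 in C0, and those of C17 had 2348. Malat1 took 15.4% of the UMIs in C9 of WT and 29.6% in C17, against 2.97% in C0 and 4.03% in C4. The cytosolic ribosomal protein genes took 5.81% and 4.68% against 24.4% and 24.6%. The part of depth or RNA quality in the lower nuclear levels was not tested.

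Few nuclear genes were past the ratio between the immature lineages. No nuclear gene of 76 was past the ratio in C2 against C0 in either library (background 6.72% and 5.7% higher, 14.1% and 12.1% lower), whereas 8 of 12 mt- genes in WT and 4 of 12 in Batf3-/- cells were lower in C2. With the median of all genes taken off, 3 and 0 of these mt- genes were lower, against 8.2% and 7.23% of all genes lower and 9.53% and 8.12% higher. C3 had 1 nuclear gene higher in each library, Atp5h (background 8.14% and 8.35%), a stalk subunit of complex V with 804 CPM against 541 CPM in WT (0.57) and 811 against 567 CPM in Batf3-/- cells (0.52), and its 1 lower gene was Ndufa8 in WT (-0.53; background 13.2%). In C4, 5 of 75 were higher and 1 was lower than in C0 (background 11.8% and 26.8%). Uqcrb, a complex III subunit that binds ubiquinone, led with 375 CPM against 220 CPM (0.77 [0.72, 0.82]), followed by Ndufa12 (0.74), Atp5g3 (0.67) and Ndufb11 (0.61). The pDC of C14 had 10 of 76 higher and 1 lower than C0 in WT (background 20.7% and 19.4%) and 9 of 77 and 2 in Batf3-/- cells (background 23.1% and 19.2%), with Ndufa11 (0.76) and Ndufa12 (0.69) highest in WT. Of 12 mt- genes, 4 and 8 were higher in C14, and the log2 ratios of the sums over all 13 were 0.43 and 0.54. The monocyte cluster C15 had 2 of 75 higher and 2 lower than C2 in WT (background 20.9% and 7.85%) and 1 of 77 and 0 in Batf3-/- cells (background 24.7% and 10.1%). The summed markers of neutrophils were 9199 CPM in WT and 20074 CPM in Batf3-/- cells of C15, against 64.1 and 1.11 CPM in C2. Their part was not tested.

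The ribosomal cDC1 of C18 had 7 of 75 nuclear genes higher and 3 lower than C4 (background 6.36% and 33.1%). The median of all genes was -0.19 there, and with it taken off 28 were higher and 0 lower, against 15.1% and 26.8% of all genes. Cox7a2l (936 CPM, 0.66 [0.52, 0.79]) and Uqcrh (818 CPM, 0.64) were among the higher ones, with Sdhd at 0.71. The cytosolic ribosomal protein genes took 34.7% of the UMIs of C18 and Malat1 0.43%. Both those shares differ from C4, and their part was not tested.

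The mixed cluster C16 stood out by Ndufa1, a small complex I subunit encoded on the X chromosome (chrX:37187588-37191163). C16 held only 58 WT and 68 Batf3-/- cells. Ndufa1 had 434 CPM in C16 and 114 CPM in C0 of WT (log2 ratio 1.93 [1.76, 2.10]) and 674 and 116 CPM in Batf3-/- cells (2.54 [2.41, 2.66]). Over the 17 WT clusters without C9 and C17, its lowest level was 84.6 CPM, in C12, and the median was 119 CPM. Ndufs5 was higher in C16 by 1.17 and 1.27 and Ndufv3 by 1.10 in each library. In all, 11 of 78 were higher and 1 lower in WT (background 21.9% and 18%), and 25 of 78 and 1 in Batf3-/- cells (background 24.7% and 19.1%).

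Across clusters, most nuclear genes followed the sum of the others. Over the 19 WT clusters the median Pearson's r of the 76 genes was 0.96, and 0.87 over the 17 without C9 and C17. The genes most like the rest over those 17 clusters were Ndufs6 (0.97), Ndufc1 (0.96) and Atp5c1 (0.95). The lowest were Sdhaf1 (-0.63), Uqcrh (0.01) and Cox7a2l (0.06), with Sdha at 0.37. Over the 14 Batf3-/- clusters Uqcrh (-0.65), Cox7a2l (-0.63) and Sdhaf1 (-0.47) were below 0, as was Ndufa6 (-0.025, against 0.72 in WT), and the median was 0.83. The points share a library and a denominator. The same r was not computed for genes outside the set, so no background stands beside these values. Between the nuclear share and that of the cytosolic ribosomal protein genes, r was 0.79 over the 19 WT clusters and 0.34 over the 17. Over the 14 Batf3-/- clusters it was -0.22.

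Between the genotypes the nuclear levels were close. The nuclear sum was higher in Batf3-/- than in WT cells in 13 of 15 clusters and lower in 2, with log2 ratios from -0.03 to 0.13, and the mt- sum was lower in 13 and higher in 2, from -0.18 to 0.01. All 15 comparisons are of the same 2 libraries, so their agreement is that of 1 pair. In C0 to C3, C5 to C8 and C10, 0 nuclear genes were past the ratio (background in C0 0.525% higher and 0.75% lower). Over these 9 clusters the background ran from 0.154% higher and 0.269% lower in C3 to 5.84% and 5.49% in C6, and outside C6 it reached 1.54% higher in C8 and 1.44% lower in C2. The differences past the ratio lay in C9, C11 and C13 to C16. In C9, Ndufa7 was higher (0.91) and Cox5a and Ndufb9 lower (-0.54 each; background 6.49% and 5.82%). In C11, Ndufb6 was higher (0.54; background 1.02%), in C13, Sdhaf1 was higher (0.60; background 4.07%), and in C14, Ndufv1 was lower (-0.63; background 2.57%). C16 had 3 higher, Ndufv1 (0.85), Ndufaf8 (0.68) and Ndufa1 (0.63), with a background of 4.91%. C15 had 4 higher, led by Sdhaf1 (0.67), and 2 lower, Ndufb2 (-0.68) and Atp5g3 (-0.54), with a background of 10.1% and 6.33%. The only mt- gene past the ratio in any cluster was mt-Atp8, lower in C15 (-0.61 [-1.39, 0.12], 20 UMIs in Batf3-/- and 80 in WT). C15 held 145 WT and 52 Batf3-/- cells. Its summed markers of neutrophils were 9199 CPM in WT and 20074 CPM in Batf3-/- cells, and those of monocytes 13018 and 19457 CPM. The part of these differences in cell makeup was not tested.

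**Figure D4:**
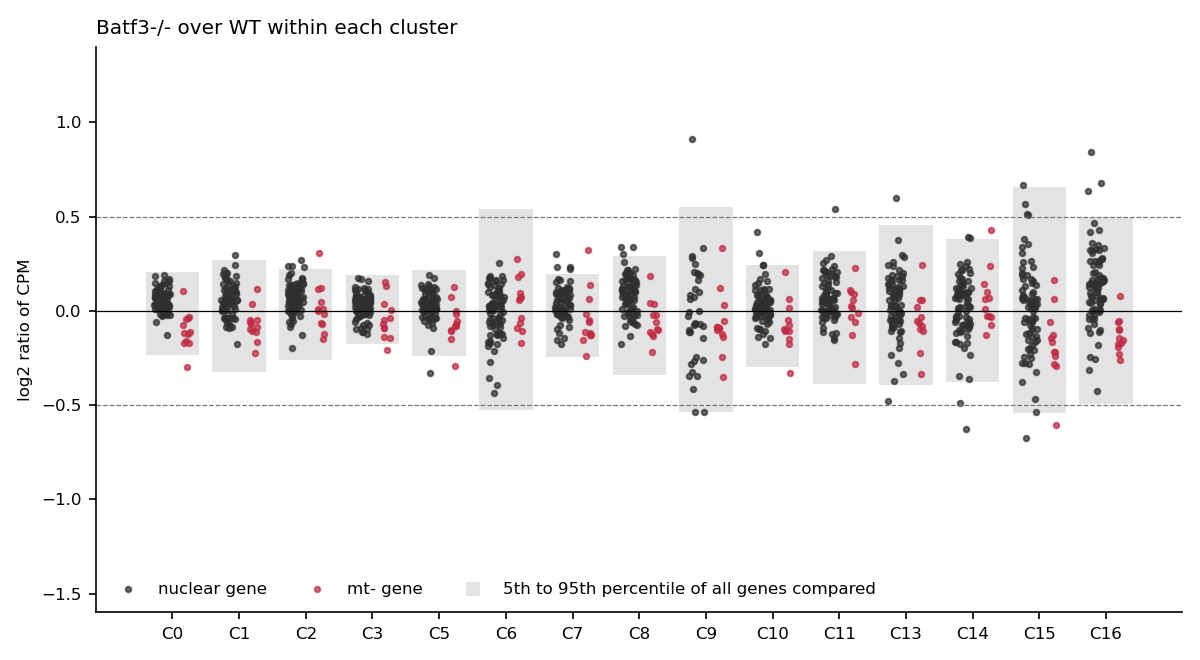
Log2 ratio of Batf3-/- over WT levels for each nuclear (black) and mt- (red) gene by cluster, with the 5th to 95th percentile of all genes compared as grey boxes and dashed lines at 0.5. The nuclear genes centre just above 0 and most mt- genes just below it in most clusters.

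In C6, the 727 Batf3-/- and 797 WT cells differed in their summed cDC1 markers, with 1081 CPM and 2647 CPM. Their summed cDC2 markers differed the other way, with 191 CPM and 30.7 CPM. The nuclear sum differed by -0.01. Single genes differed by less than the ratio counted as past. Ndufs4, a complex I subunit of the NADH arm, had 124 CPM in Batf3-/- and 168 CPM in WT cells (-0.44 [-0.53, -0.35]), Uqcrb 349 CPM and 458 CPM (-0.39), and Cox7c, a complex IV subunit, 518 CPM and 664 CPM (-0.36). S and G2M cells made up 74.0% of C6 in Batf3-/- and 98.4% in WT. Within S the nuclear share was 2.35% in Batf3-/- and 2.32% in WT cells, and within G2M it was 2.39% and 2.34%. The 189 G1 cells of Batf3-/- had 2.10%. The part of phase in the summed difference was not tested.

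Some genes leaned one way in nearly every cluster. Of the genes compared in all 15 clusters, 1 of 36 nuclear (2.78%) and 4 of 12 mt- genes (33.3%) had the same sign in each, against 2.89% of all genes. In at least 14 clusters it was 4 nuclear (11.1%) and 5 mt- genes (41.7%), against 9.24%. The nuclear shares were thus close to those of all genes, and the nuclear genes named here are examples only. The mt- sum was itself lower in 13 of the 15 clusters. The share of all genes was not matched by level, and genes were compared from 50 CPM. Most mt- genes stood far above that, mt-Nd1 for example at 1623 CPM over all cells. Counting error can turn the sign of a low gene more easily, so 2.89% and 9.24% are not a like background for the mt- genes. Atp5g2, which encodes subunit c of complex V, was higher in Batf3-/- cells in 15 of 15 clusters (0.01 to 0.24), Atp5e, Atp5h and Cox4i1 in 14 of 15, and Ndufa8 was lower in 13 of 14. Of the mt- genes, mt-Nd3 was lower in 15 of 15 (-0.35 to -0.13), as were mt-Co2 and mt-Nd1, whereas mt-Nd4l was higher in 15 of 15 (0.08 to 0.43). In C0, mt-Nd3 had 585 CPM in Batf3-/- and 719 CPM in WT cells, and mt-Nd4l 168 and 156 CPM. The end of mt-Nd4l (9877-10173) overlaps the start of mt-Nd4 (10167-11544) on the same strand. The end of mt-Atp8 (7766-7969) likewise overlaps the start of mt-Atp6 (7927-8607). Whether counts were split between them was not tested.

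The makeup of the mt- transcripts varied between clusters. mt-Co1, the catalytic subunit of complex IV, took 21.3% [21.0, 21.5] of the mt- UMIs in C12, the highest share of any WT cluster, against 17.4% in C4. mt-Nd1, a membrane subunit of complex I, took 4.43% in C5, 4.69% in C6 and 4.79% in C7 of WT against 3.66% in C0 and 3.90% in C4, and 2.96% in C9. The same order was seen in Batf3-/- cells, at 4.20%, 4.37% and 4.60% against 3.49% in C0. mt-Cytb, the complex III subunit, took 9.35% in C16 of WT and 9.57% in Batf3-/- cells against 5.89% and 6.34% in C3.

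**Figure D5:**
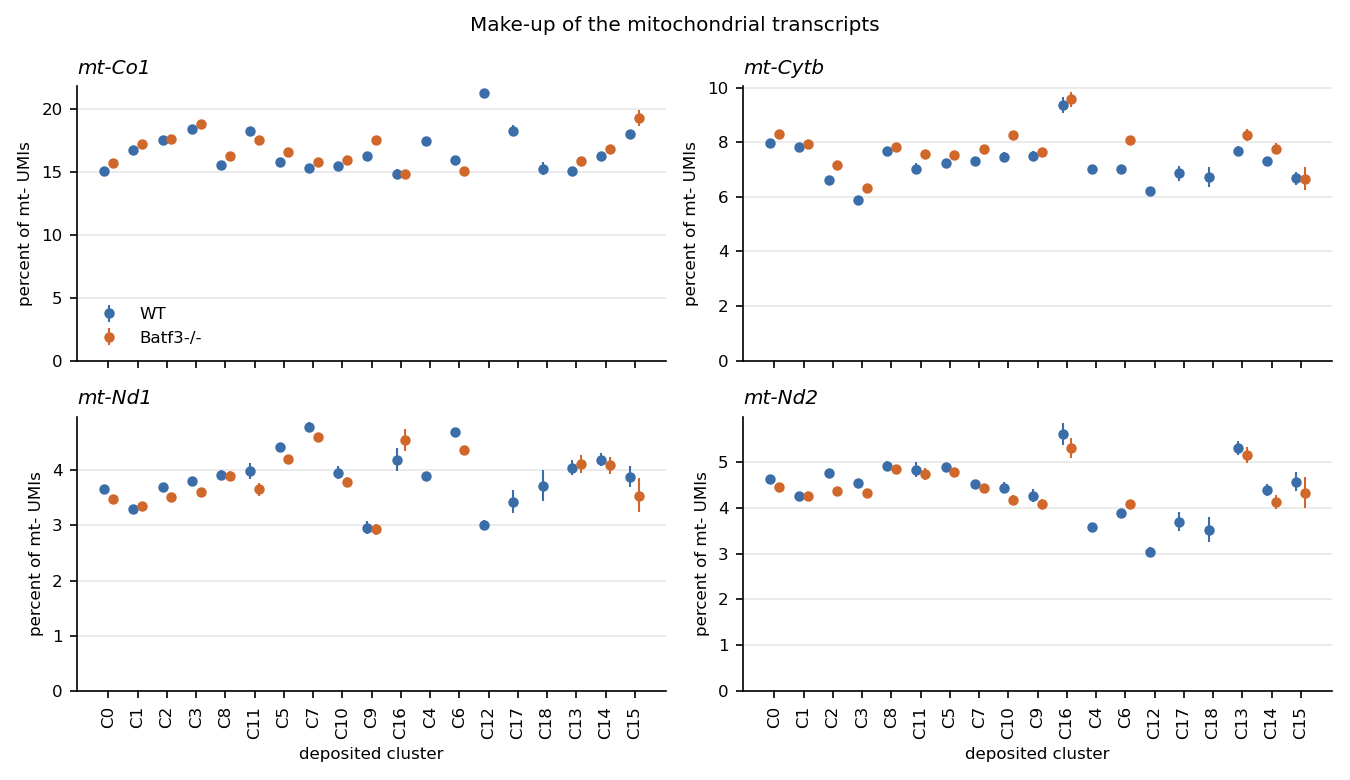
Share of mt-Co1, mt-Cytb, mt-Nd1 and mt-Nd2 among the mt- UMIs by cluster and library, with exact counting intervals. mt-Co1 is highest in C12, mt-Cytb in C16 and mt-Nd1 in the mitotic clusters.

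The 3 genes Atp5g1, Atp5g2 and Atp5g3 encode the same mature subunit c. Atp5g2 was the main source in C0, with 56.0% of their UMIs in WT and 58.9% in Batf3-/- cells, followed by Atp5g1 (27.1% and 25.5%) and Atp5g3 (16.9% and 15.6%). In C6 Atp5g2 took 44.4% and 47.2%, Atp5g1 31.9% and 31.5%, and Atp5g3 23.7% and 21.3%, so that Atp5g2 took less of the sum in mitotic cDC1 than in C0 and in C4 (49.8%).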

How the data were processed

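Per the labels, the authors sequenced 3′ libraries of sorted spleen cells (10x Chromium) and aligned them to GRCm38/mm10. They used bcl2fastq 2.2.0, Cell Ranger and Seurat 3.0.5, evened the depth of the 2 libraries, filtered the cells and clustered them. The deposited raw count table holds UMI counts per gene and cell, and its cell table gave library, cluster (resolution 0.5) and phase. The share of each cell's UMIs on mitochondrial genes, also deposited there by the authors as a fraction, served only as a check of the share recomputed from the counts. The deposited normalized tables and antibody tables were not used. From the raw counts, UMIs were summed per cluster and library with Python 3.11.15, NumPy 2.4.6, pandas 2.3.3 and SciPy 1.17.1. Ratio intervals came from the exact binomial split of UMIs and intervals of shares were Clopper-Pearson. Only the ratios and their intervals were tested on simulated data. Those counts were drawn from the summed profiles of C6 and C4 with counting error alone, without variation between cells or libraries. Members and gene lists were chosen with earlier results of these data known. The rule for named genes took the highest and lowest ratios of each contrast, the 2 highest levels per complex, the mt- genes, complex I core subunits, complex II, alternative isoforms, the widest ranges and genes at 0; other names (Uqcrh, Cox5a and Ndufa6 in some contrasts, Ndufs4, Ndufaf8) were chosen after values were seen. Doublets were called with Scrublet in scanpy 1.11.5: it called 3.58% of the WT cells, with the highest share in C13, and 1 of 12119 Batf3-/- cells, where it did not work, so cells were kept. Atp5o.1 could not be placed, and 104 of the 105 genes had a position in the annotation. Alternatives changed the denominator, weighting, filters on cells and thresholds. The values of 1 gene are not reported here.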

Additional observations from a re-analysis of the deposited data

Results flagged for a closer look

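Ndufv1, the NADH-binding subunit of complex I, differed between the genotypes in opposite directions in 2 clusters. In C16 it was higher in Batf3-/- cells, at 82.6 CPM against 46.0 CPM (77 and 34 UMIs, log2 ratio 0.85), and in C14 it was lower, at 52.8 CPM against 81.4 CPM (-0.63). Over the 12 clusters compared, Ndufv1 was higher in Batf3-/- cells in 10 and lower in 2, with a median log2 ratio of 0.16. C16 held 58 WT and 68 Batf3-/- cells, and C14 held 154 and 101. Several of these levels were near the minimum of 50 CPM, and the 2 clusters hold the extremes of the 12. With 1 library per genotype the difference between the clusters was not tested.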

How the results depend on the processing

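No paired analysis was possible because each genotype had 1 library and the labels carry no replicate numbers. Of the 316 alternatives computed, 128 on the summary values stayed within the counting interval or within 1.5 times the count and 42 moved further, and of those on single genes 134 stayed and 12 moved. No difference counted as past the ratio changed sign, but both genotype sums of C6, which lie near 0, did. The reported values were 2.33% for the nuclear share of C6 and 4.82% for the mt- share of C0 in WT, 0.30 and -0.78 for the nuclear log2 sums of C6 and C12 over C4, 0.06 and -0.01 for the nuclear sums of Batf3-/- over WT in C0 and C6, and -0.10 and -0.01 for the mt- sums. With mt- UMIs out of the denominator these became 2.42%, 5.07%, 0.29 (C6 over C4) and -0.11 (mt- sum, C0). With cytosolic ribosomal UMIs out as well they became 3.18%, 6.82%, 0.26, -0.93, 0.0766, 0.0527, -0.0797 and 0.0583. In C7 of WT, 12 in place of 24 nuclear genes were then higher, against 18.9% in place of 22.9% of all genes. Weighting cells equally gave 4.81% for the mt- share of C0, 0.32, -0.96, 0.0493 and -0.0273 for the nuclear sums, 0.00577 for the mt- sum of C6 and 22.8% for mt-Co1 in C12. Without Scrublet calls the C6 share was 2.36%, the cluster sums were 0.31 and -0.82, and the C6 genotype sums -0.0263 and 0.00317. At the WT threshold in both libraries, chosen after seeing the data, the values were 2.36%, 0.31, -0.82, -0.0243 and 0.00258. Without cells over 10% mt- UMIs the values were 4.71%, -0.75 (C12 over C4), -0.0868 (mt- sum, C0) and 21.0% for mt-Co1. In C6 the number of genes past the ratio between genotypes was 0, and 1 at a minimum of 20 CPM, 2 with no minimum and 3 at a log2 ratio of 0.3, against 11.3%, 11.6%, 21.3% and 22.2% of all genes. At that ratio 42 genes were higher in C7 and 49 in C6 (32.4% and 35.8% of all genes), and at a ratio of 1 none were (0 and 0, against 10.7% and 5.84% of all genes), with 31 lower in C12 (19.7% of all genes). G1 cells alone gave no value for C6 and C7 of WT. Leaving out the shared barcodes or taking erythroid UMIs out of the denominator, both added after seeing the data, moved none of these. Small clusters and genes near 50 CPM are limited by depth.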

Other observations

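C19, which the study named stem cells, held 29 cells in WT and 36 in Batf3-/- and so was under the minimum. It had nuclear shares of 2.50% and 2.34% and mt- shares of 3.66% and 2.08%. The summed red blood cell markers took 208058 and 225340 CPM there, and the summed dendritic cell markers 266 and 1370 CPM. By these markers C19 was mostly of the red blood cell lineage, and no stem cell markers were counted. The red blood cell UMIs are part of the denominator of the shares. Within C4, cells assigned to S phase had a nuclear share of 2.01% and those in G1 1.88%. Within C6 of the Batf3-/- library the share was 2.10% in G1, 2.35% in S and 2.39% in G2M, and within C0 of WT it was 1.82% in G1 and 1.80% in S. In C10 and C5 of the Batf3-/- library G1 cells were the higher ones, with 2.54% in the 52 G1 cells of C10 against 2.24% in G2M, and 2.15% in the 68 G1 cells of C5 against 2.11% in S. Splitting the cells of C12 into 4 equal groups by their mt- share gave nuclear shares of 1.03%, 1.21%, 1.16% and 0.87% from the lowest to the highest group, the last with a median of 2876 UMIs per cell. In the same groups Malat1 took 16.6%, 11.2%, 10.8% and 15.1%.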
